A study of Mus musculus with 10 samples.

Results

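The NR4A receptors are 3 nuclear receptors, encoded in the mouse by Nr4a1 (also called Nur77), Nr4a2 (Nurr1) and Nr4a3 (Nor1). The genes were taken from the deposited table by their symbols, and all 3 were found among its 25050 genes and had enough counts to be tested. The receptors are called orphans because no natural ligand was known for them. Their ligand pocket is filled by bulky side chains, so that their activity follows mainly from how much protein is made. They bind DNA as monomers or as dimers with each other, and those of Nr4a1 and Nr4a2 also as dimers with retinoid X receptors. In neurons their genes are switched on within minutes to hours of stimulation, through CREB and MEF2 factors and calcium and cyclic AMP signals, and they are immediate early genes. Nr4a2 is in addition made steadily in midbrain dopamine neurons, where it maintains the transmitter genes, and in the claustrum and deep cortex.

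The study compared whole brains of 5 wildtype mice (Abcc5+/+) with whole brains of 5 mice labelled as Abcc5 knockouts (Abcc5-/-), all of strain background FVB/NJ. Abcc5, also known as Mrp5, encodes a membrane pump for organic anions that was studied here as a carrier of glutamate conjugates. All mice were killed with carbon dioxide and the brains were frozen straight away, and polyadenylated RNA was sequenced. Age and sex were not used here, and no stimulus is named in the labels.

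Libraries held 7731294 to 23588335 counts, and 14526 genes were tested. The targeted gene Abcc5 fell from 310.5 ± 12.6 to 218.4 ± 5.94 CPM (counts scaled to library size, with TMM factors; SD, n = 5 each, edgeR adjusted p 6.35e-06), with no overlap between the groups. The knockout level was 70.3% of the wildtype level. The deleted part of Abcc5 is not given in the sources used here, so counts over the whole gene are only a limited check of the labels. The neuronal markers Snap25, Rbfox3 and Syt1 were present in every library. Knockout replicate 3 stood apart from the other 9 libraries: its summed level of 10 cerebellar markers was 243.9 CPM, against 1510 to 1789 CPM in the others, and the results that turn on it are given with and without it. Each library is labelled as a separate brain.

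Each Nr4a promoter held 4 copies of the cyclic AMP response half-site TGACG, the word that CREB reads, and the promoters are shown for this shared feature. The sequences are the 300 bases from 250 before to 50 after the start, from RefSeq on build GRCm38.p6, printed 5′ to 3′ along the gene, and capitals mark TGACG or its reverse complement CGTCA.
Nr4a1 (chr15:101266596-101266895, plus strand): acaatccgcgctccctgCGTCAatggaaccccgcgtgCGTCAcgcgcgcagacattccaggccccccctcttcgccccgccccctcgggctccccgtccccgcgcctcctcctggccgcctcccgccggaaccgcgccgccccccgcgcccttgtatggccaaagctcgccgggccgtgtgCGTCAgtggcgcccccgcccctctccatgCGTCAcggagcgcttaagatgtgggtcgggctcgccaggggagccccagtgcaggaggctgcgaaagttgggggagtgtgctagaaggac
Nr4a2 (chr2:57123954-57124253, minus strand): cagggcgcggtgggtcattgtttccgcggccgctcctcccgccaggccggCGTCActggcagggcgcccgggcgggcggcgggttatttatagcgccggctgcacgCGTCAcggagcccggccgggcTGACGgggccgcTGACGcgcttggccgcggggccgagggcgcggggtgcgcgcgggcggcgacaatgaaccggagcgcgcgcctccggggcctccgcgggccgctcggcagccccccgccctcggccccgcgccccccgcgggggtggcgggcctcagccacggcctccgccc
Nr4a3 (chr4:48045055-48045354, plus strand): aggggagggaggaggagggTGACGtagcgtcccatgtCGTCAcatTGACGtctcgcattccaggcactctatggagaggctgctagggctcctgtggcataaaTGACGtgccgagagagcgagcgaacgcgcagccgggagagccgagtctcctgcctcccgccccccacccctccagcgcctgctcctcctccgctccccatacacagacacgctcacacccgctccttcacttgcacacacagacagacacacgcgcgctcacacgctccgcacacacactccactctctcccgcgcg

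In Nr4a1 the half-sites began 233, 213, 69 and 40 bases before the start, all read on the lower strand. In Nr4a2 they began at 200, 144, 123 and 111 bases before it, and in Nr4a3 at 231, 213, 205 and 147. Of 32851 promoters of this length, 20.8% held at least 1 half-site on either strand and 0.231% held at least 4. The Nr4a promoters are rich in G and C (72.3%, 81.7% and 64.7%), and among the 9690 promoters with at least 60% G and C the share with at least 4 was 0.557%. A count of half-sites over the immediate early genes was void, since 23 of 31 tested genes had a promoter in the table. Of 34 tested nuclear receptors outside the family 30 had a promoter. At least 1 half-site was in 11 of them (36.7%) and at least 4 in 0. Counted by gene over the whole promoter table these shares were 23% and 0.255%, and the difference was not tested. The full palindrome TGACGTCA was in 0 of the Nr4a promoters and in 1.79% of all, and the word AAAGGTCA, to which NR4A monomers bind, was in 0 of them on either strand and in 1.51% of all. A MEF2 site, searched on both strands, was in the Nr4a2 promoter and in 3.19% of all. These are matches of letters in a fixed window and not measured binding.

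All 3 Nr4a transcripts were lower in the knockout brains, Nr4a3 by the largest fold. Nr4a3 fell 2.54-fold, Nr4a1 fell 1.99-fold and Nr4a2 fell 1.46-fold. In each of the 3 genes every knockout brain lay below every wildtype brain. Over all tested genes, 1.18% were called at an edgeR adjusted p under 0.05, 0.964% lower and 0.213% higher, and in 2.64% the knockout brains all lay below the wildtype brains. In whole tissue, fewer cells that make a transcript and less of it per cell cannot be told apart.

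Nr4a3 lies on chromosome 4 (ENSMUSG00000028341, 48058025 to 48099319 as the deposited table numbers it, with no build named). Its level in wildtype replicates 1 to 5 was 55.1, 58.8, 66.8, 57.3 and 61.0 CPM. In knockout replicates 1 to 5 it was 25.9, 23.9, 28.6, 17.2 and 24.6 CPM. Wildtype replicate 3 was the highest brain, knockout replicate 4 was the lowest, and a wide gap parted the groups. The means were 59.8 ± 4.49 and 24.0 ± 4.21 CPM (SD, n = 5 each), a log2 fold change (log2FC, knockout over wildtype) of -1.35 (SE 0.10, edgeR adjusted p 5.17e-06). By p-value Nr4a3 ranked 3 of 14526, and by fold change it ranked 3 from the lowest.

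Nr4a1, first described as a gene induced by nerve growth factor and the most abundant of the family in these brains, lies on chromosome 15 (ENSMUSG00000023034, 101097277 to 101105223). Wildtype replicates 1 to 5 had 120.7, 98.3, 97.2, 85.9 and 97.6 CPM. Knockout replicates 1 to 5 had 36.2, 43.8, 56.5, 52.6 and 64.2 CPM. Wildtype replicate 1 stood above its group and knockout replicate 1 below its own, and the groups did not overlap. The means were 99.9 ± 12.7 and 50.7 ± 10.9 CPM (SD, n = 5 each), a log2FC of -0.995 (SE 0.12, edgeR adjusted p 0.000506). Nr4a1 ranked 17 of 14526 by p-value and 13 from the lowest by fold change.

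Nr4a2, the member needed for dopamine neurons, lies on chromosome 2 (ENSMUSG00000026826, 56959241 to 56976414). Wildtype replicates 1 to 5 had 42.0, 40.8, 41.3, 38.9 and 40.9 CPM. Knockout replicates 1 to 5 had 26.5, 27.6, 38.2, 22.8 and 27.1 CPM. The wildtype brains were close together, and knockout replicate 3, the brain with few cerebellar transcripts, came just below the lowest of them while the other knockout brains lay well under it. The means were 40.8 ± 1.15 and 28.4 ± 5.77 CPM (SD, n = 5 each), a log2FC of -0.55 (SE 0.099, edgeR adjusted p 0.0124). Without knockout replicate 3 the log2FC was -0.66 (edgeR adjusted p 6.42e-06). Among the 7 libraries with at most 11479995 counts it was -0.41 and did not pass (edgeR adjusted p 0.195). The knockout brains there are replicates 1, 3 and 5, so replicate 3 weighs more than in the full set. With depth class as a term in all 10 libraries the log2FC was -0.53 (edgeR adjusted p 0.0140). In the authors' deposited table Nr4a2 has a log2FC of -0.589 with an adjusted p of 0.00412, and Nr4a1 has an adjusted p of 0.000175.

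**Figure D1:**
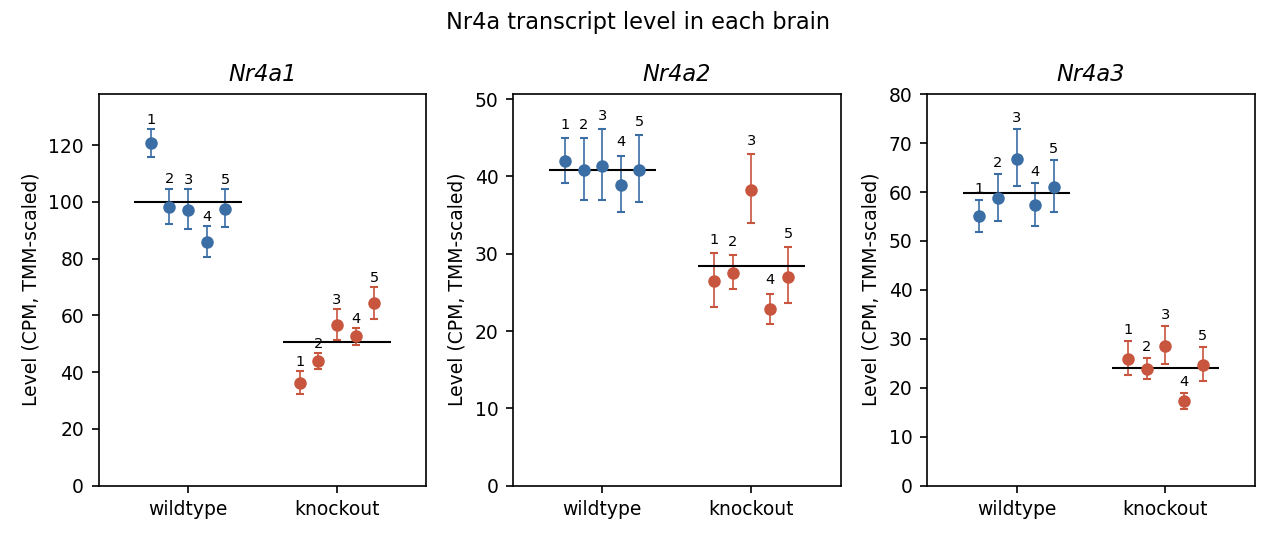
Level of each Nr4a transcript in TMM-scaled CPM in every brain, labelled by replicate number, with 95% exact Poisson intervals as bars and group means as lines. All knockout brains sit below all wildtype brains in each panel, and knockout replicate 3 at 38.2 CPM is the highest knockout brain for Nr4a2.

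The members share little exact sequence: the longest run common to transcripts of 2 members in GENCODE M21 was 27 bases (Nr4a2 and Nr4a3), against 24 for Nr4a1 and Nr4a3 and 14 for Nr4a1 and Nr4a2. In that annotation 0 other genes overlapped any of the 3. The members lie on 3 chromosomes, none of which is chromosome 16 that carries Abcc5. Of the 12 nearest tested neighbours, 2 on each side of each member and 9.51 to 1669 kb away, edgeR called 0, beside 1.18% of all tested genes. At that share most sets of 12 genes would hold 0 calls, so the count tells nothing about the neighbourhood. Their log2FC values were -0.26 to 0.13, with edgeR adjusted p-values of 0.260 to 0.991. Grasp, the nearest tested gene on the low side of Nr4a1 and a scaffold of glutamate receptors, had 24.3 CPM in the wildtype brains and 24.0 CPM in knockout.

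Per kilobase of exon (lengths from GENCODE M21, so RPKM, CPM per kilobase), Nr4a1 was the most abundant member in wildtype brain at 28.5 ± 3.62 (SD, n = 5). Nr4a2 had 10.1 ± 0.283 and Nr4a3 had 9.99 ± 0.75, levels that did not differ beyond the spread of either. In knockout brain the levels were 14.4 ± 3.12 for Nr4a1, 7.00 ± 1.42 for Nr4a2 and 4.01 ± 0.704 for Nr4a3, so Nr4a3 came last. Among 37 tested nuclear receptor genes, ranked by this level, Nr4a1 was at place 4 in wildtype and 8 in knockout, Nr4a2 at 11 and 13, and Nr4a3 at 13 and 19. GENCODE M21 places Nr4a1 at 101254269 to 101274795, a longer stretch than the 7947 bases of the deposited table. Its exon length of 3509 bases may thus hold exons that were not counted, which would lower its RPKM, so its places are uncertain. The spans of Nr4a2 and Nr4a3 are the same in both.

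How far the members differed in their change was tested by the ratio of 2 members within a library, which needs no scaling between libraries. The log2 ratio of Nr4a3 to Nr4a2 counts was 0.55 ± 0.11 in wildtype and -0.24 ± 0.17 in knockout (SD, n = 5 each). It was 0.39 to 0.69 in the wildtype brains and -0.42 to -0.032 in the knockout brains, without overlap. Counts also follow exon length (5987 bases for Nr4a3, 4059 for Nr4a2), so the side of 0 does not tell which transcript was more abundant. Per kilobase Nr4a3 lay below Nr4a2 in wildtype replicates 1, 2 and 4 and in every knockout brain. It lay above Nr4a2 in wildtype replicates 3 and 5. The difference of -0.79 in log2 ratio between the groups had an exact two-sided permutation p of 0.00794, the smallest that 5 brains against 5 can give. After Benjamini-Hochberg adjustment over the 3 pairs it was 0.0238.

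The ratio of Nr4a2 to Nr4a1 had log2 means of -1.28 ± 0.14 and -0.83 ± 0.37 (SD, n = 5 each). Knockout replicates 1, 2 and 3 were above all wildtype brains, and knockout replicates 4 and 5 lay within the wildtype range. The difference of 0.46 did not pass (exact permutation p 0.0556, adjusted 0.0833). Without knockout replicate 4 it was 0.55 (exact permutation, adjusted p 0.0357) and without knockout replicate 5 it was 0.56 (exact permutation, adjusted p 0.0238). With any other 1 library left out it did not pass (exact permutation, adjusted p 0.0556 to 0.131). Nor did it in the 7 shallower libraries (0.129) or with the replicate number as a block (0.281), both adjusted p-values by exact permutation. The ratio of Nr4a3 to Nr4a1 had means of -0.73 ± 0.24 and -1.07 ± 0.44, a difference of -0.33 that did not pass (exact permutation p 0.190).

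**Figure D2:**
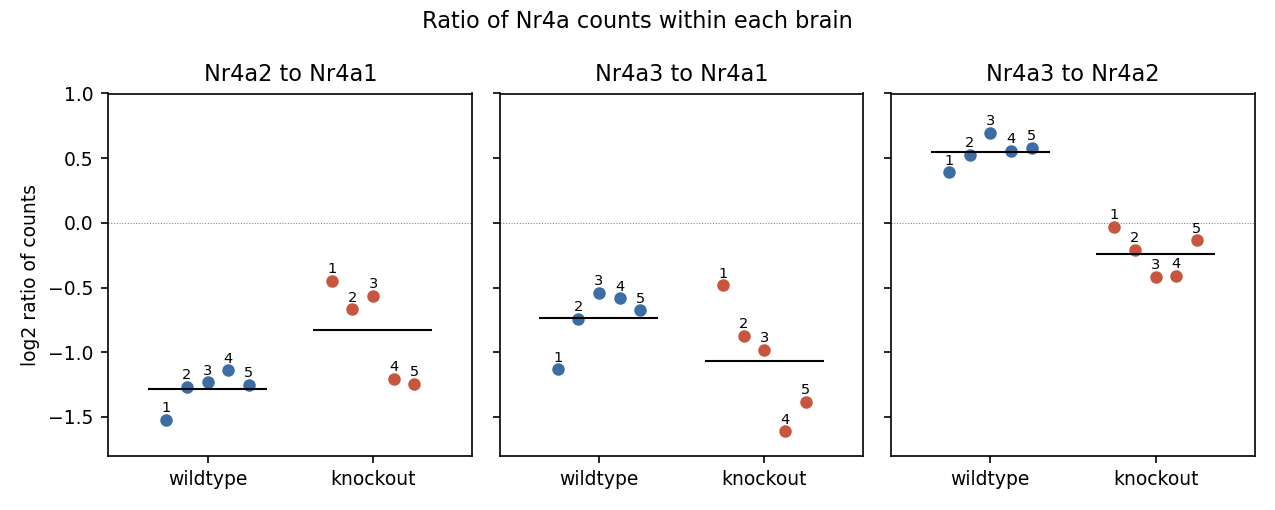
Log2 ratio of the counts of 2 Nr4a members within each brain, labelled by replicate number, with group means as lines. For Nr4a3 to Nr4a2 all wildtype brains lie above all knockout brains, while the groups overlap for the other ratios. Counts are not scaled to transcript length, so the side of 0 does not tell which transcript is more abundant.

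The coefficient of variation between brains was 12.7% in wildtype and 21.6% in knockout for Nr4a1, 2.81% and 20.3% for Nr4a2, and 7.50% and 17.5% for Nr4a3. Counting error alone gives 3.15%, 4.87% and 3.99% in the wildtype libraries and 4.30%, 5.63% and 6.06% in the knockout libraries, so the wildtype value of Nr4a2 lay below its counting error. Single brains carried much of the spread. Without knockout replicate 3 the knockout value of Nr4a2 was 8.25%, and without knockout replicate 4 that of Nr4a3 was 8.03%. Without wildtype replicate 1 the wildtype value of Nr4a1 was 6.27%, and without wildtype replicate 3 that of Nr4a3 was 4.32%. Without wildtype replicate 4 the wildtype value of Nr4a2 was 1.34%. The knockout value of Nr4a1 was at least 15.7% with any 1 knockout brain left out.

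Genes of like level (within 1.5-fold of each member, 2666 to 3092 genes) had a median of 6.15% to 7.19% in knockout, and 1.58%, 3.07% and 4.51% of them had a higher value than Nr4a1, Nr4a2 and Nr4a3. Without knockout replicate 3 these shares were 0.113%, 25.4% and 0.948%, and without knockout replicate 4 they were 1.05%, 4.33% and 39.3%. Without knockout replicate 1 the share for Nr4a1 was 6.26%. These spreads are descriptions and were not tested.

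How the members varied together from brain to brain was described after the group means were removed. Over the 10 libraries, Pearson's r of these deviations was 0.75 for Nr4a2 with Nr4a3 (Spearman 0.39), 0.26 for Nr4a2 with Nr4a1 (Spearman 0.38) and -0.12 for Nr4a3 with Nr4a1 (Spearman -0.10). With 1 library left out the values were 0.59 to 0.83, 0.020 to 0.42 and -0.32 to 0.061, and without knockout replicate 3 they were 0.81, 0.020 and -0.32. The points share their libraries and depth and pool both groups, and these values are descriptions. By the same measure the 5 genes of at least 5 CPM most like Nr4a1, of 11871 compared, were Pcbp3, Pcp4l1, Tshz1, Cyr61 and Pbx3. Their r was 0.95 to 0.97, and 0.95 to 0.97 without knockout replicate 3. The highest of 11871 correlations over 10 libraries are raised by selection. Leaving out 1 library does not test the chosen genes anew, and the same holds for the genes most like Nr4a2 and Nr4a3. Cyr61 is itself an immediate early gene, and Tshz1 and Pbx3 are transcription factors of olfactory bulb interneurons among other cells. Of the 5 genes most like Nr4a1 edgeR called 0 between genotypes (adjusted p 0.334 to 0.989), beside 1.18% of all tested genes.

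The 5 genes most like Nr4a2 were Pcdh1, C2cd2l, Mkl2, Syt1 and Synpo, with r of 0.97 to 0.99, and of 0.84 to 0.92 without knockout replicate 3. Syt1 is the calcium sensor of synaptic vesicles and Synpo a protein of dendritic spines. Among those most like Nr4a3 were Rgs4, Kcnh1, Sgtb and Rbbp7, with r of 0.96 to 0.97 in all libraries and 0.95 to 0.96 without knockout replicate 3. Rgs4 damps G-protein signals and Kcnh1 is a voltage-gated potassium channel. Of these 9 genes 0 were called by edgeR, beside 1.18% of all tested genes, and their log2FC values ran from -0.14 to 0.063.

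Markers of brain regions were set beside these levels. The summed level of 7 olfactory bulb markers was 182.1 to 220.8 CPM in the wildtype brains and 143.2 to 205.7 CPM in knockout brains. Of the 7, 1 was called lower and 0 higher, beside 0.964% and 0.213% of all tested genes (median log2FC -0.51). The called marker was Eomes, a factor of mitral and tufted cells (edgeR adjusted p 0.00805), and Tbx21, another mitral cell factor, was at 0 in at least 1 knockout brain. Wildtype replicate 1 was highest and knockout replicate 1 lowest for both the olfactory bulb sum and Nr4a1. Knockout replicates 4 and 5 had olfactory bulb sums of 205.7 and 193.6 CPM, within the wildtype range, and Nr4a1 levels of 52.6 and 64.2 CPM, below every wildtype brain. With the log2 olfactory bulb sum as a term of the model, chosen after seeing the data, the log2FC was -0.77 for Nr4a1 (edgeR adjusted p 0.00115), -0.62 for Nr4a2 (0.0259) and -1.51 for Nr4a3 (9.32e-06), all adjusted p-values by edgeR. With the log2 cerebellar sum as a term it was -1.03 for Nr4a1, -0.64 for Nr4a2 and -1.40 for Nr4a3 (edgeR adjusted p 1.89e-05, 6.31e-06 and 9.96e-08). That sum mainly sets knockout replicate 3 apart, so the term acts much like leaving that brain out. Without knockout replicate 3 and with no such term the log2FC values were -1.04, -0.66 and -1.41.

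**Figure D3:**
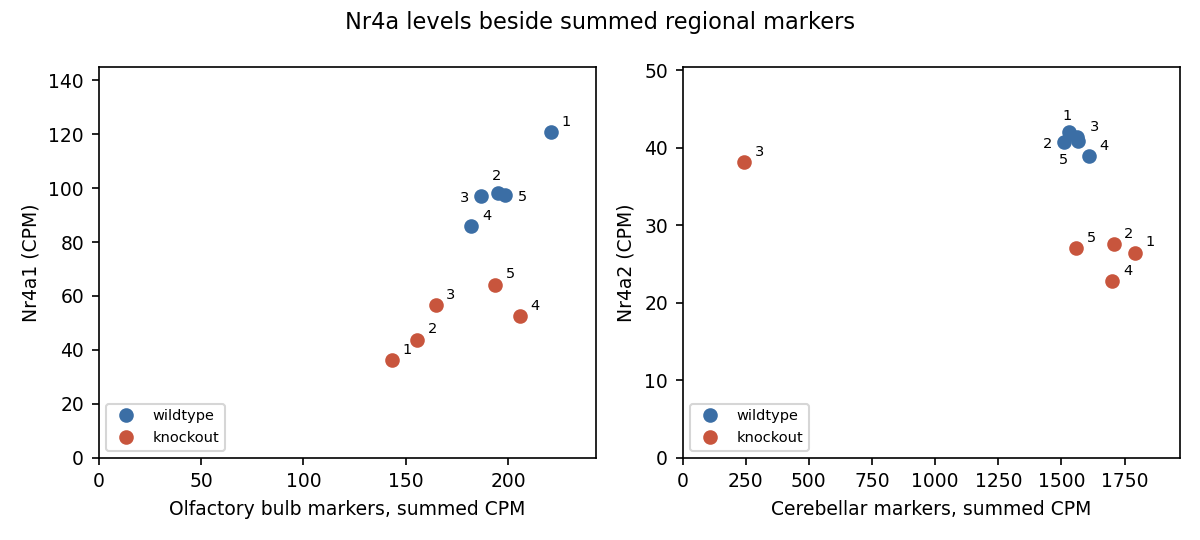
Left, Nr4a1 level against the summed level of 7 olfactory bulb markers, and right, Nr4a2 level against the summed level of 10 cerebellar markers, both in CPM, 1 point per brain labelled by replicate number. Knockout replicate 3 stands alone at 243.9 CPM of cerebellar markers, and knockout replicate 1 is lowest on both axes of the left panel.

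Of 14 marker lists for cell types and regions, with 101 tested members, 12 had 0 called members by edgeR, beside 1.18% of all tested genes. At that share lists this short would mostly hold 0 calls, so the 0s do not show that cell types were equally represented. Beside the olfactory bulb, the microglial list had 2 of 9 called higher (C1qc and C1qb, complement genes), against 0.213% of all tested genes, with a median log2FC of 0.16. Its summed level was 231.3 CPM in the lowest wildtype brain and 266.7 to 319.9 CPM in the knockout brains, and the lowest knockout brain lay 16.7 CPM above the highest wildtype brain. The claustrum and layer 6b list, the cortical cells in which Nr4a2 is a known marker, had 0 of 7 called, and for 2 the p before adjustment was under 0.05, beside 14.8% of all tested genes (median log2FC -0.044, summed 207.2 to 228.5 CPM in the wildtype brains and 196.9 to 248.9 CPM in knockout). Cortical layer markers had 0 of 8 called, with 449.8 to 504.4 CPM in the wildtype brains and 423.6 to 608.2 CPM in knockout, the highest again in knockout replicate 3. The blood list had a median log2FC of 0.32 and the meningeal list of -0.22, and the medians of the 10 lists other than these, the microglial and the olfactory bulb ran from -0.093 to 0.095. The part of these markers in the Nr4a results was not tested beyond the 2 terms above.

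Few other nuclear receptors passed the test. Of 45 listed outside the family 34 were tested, of which 1 was called lower and 0 higher, beside 0.964% and 0.213% of all tested genes, and their median log2FC was 0.0033 against 0.0042 over all tested genes. Their log2FC values ran from -0.30 to 0.22, all smaller in size than that of any Nr4a member. The called gene was Nr1d2, a heme-binding repressor of the circadian clock, which was 221.8 ± 13.1 CPM in the wildtype brains and 187.6 ± 7.47 CPM in knockout (SD, n = 5 each; log2FC -0.24, edgeR adjusted p 0.0264). It no longer passed in 10 of 23 alternatives, among them leaving out any 1 of wildtype replicates 2 to 5 or of knockout replicates 1, 2 and 4 (highest adjusted p 0.0899 by edgeR). Thra, the thyroid hormone receptor and the most abundant per length at 103.3 RPKM in wildtype, had a log2FC of 0.15 (edgeR adjusted p 0.193).

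**Figure D4:**
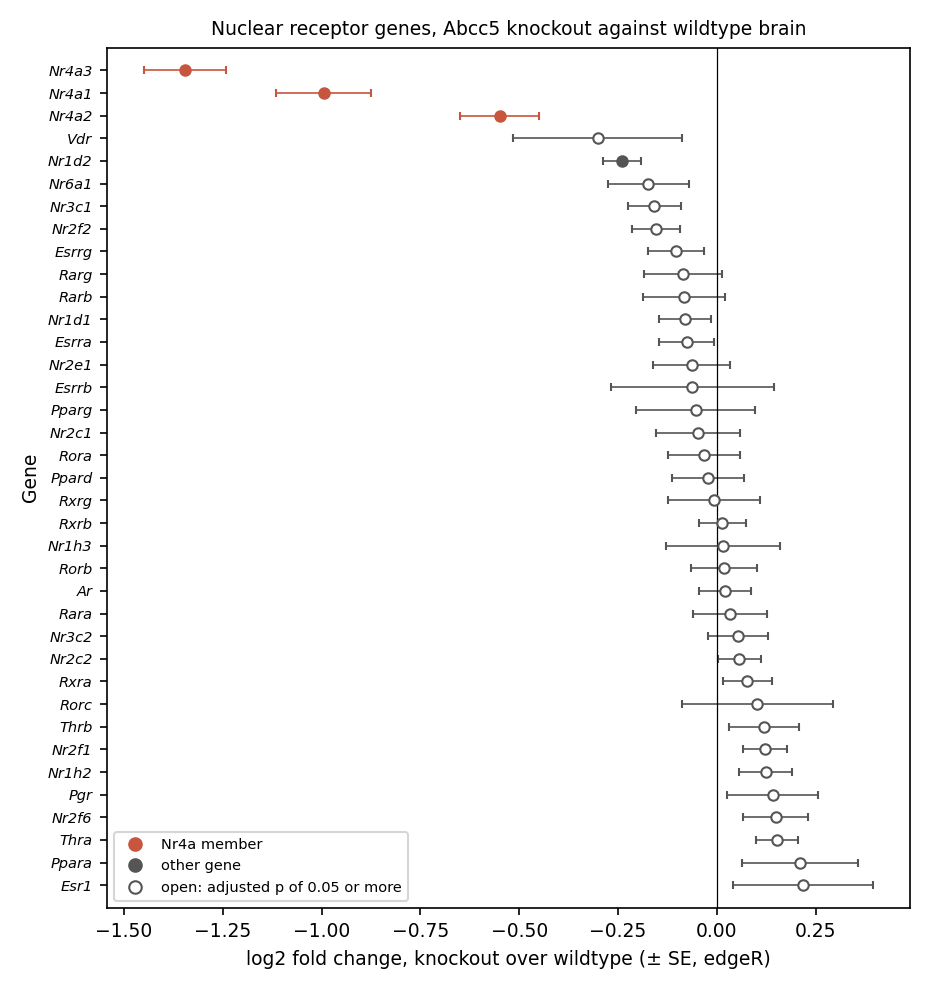
Log2 fold change (knockout over wildtype, with SE) of the 3 Nr4a members and 34 other tested nuclear receptor genes, ordered by value, filled where the edgeR adjusted p is under 0.05. The Nr4a members hold the lowest 3 places, and the others lie between -0.30 and 0.22.

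No retinoid X receptor or cofactor of NR4A proteins passed the test. Of 17 partners and cofactors edgeR called 0, and for 3 the p before adjustment was under 0.05, beside 1.18% and 14.8% of all tested genes. DESeq2 called 1 lower, weighted limma-voom 2 and unweighted limma-voom 0, beside 209, 392 and 154 of all 14526 tested genes. Without knockout replicate 3, edgeR called 2 lower, beside 248 of all 14747 genes tested in those libraries. Those with the smallest p were Ncoa3, a coactivator (log2FC -0.19, edgeR adjusted p 0.0587), and Rcor1, the corepressor that Nr4a2 recruits in glia (-0.22, edgeR adjusted p 0.0755). The most abundant, the corepressor gene Ncor1 and the RNA-binding protein gene Sfpq, had log2FC values of -0.033 and -0.12.

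Of the factors, kinases and repressors known to act upstream of the Nr4a genes 30 were tested. By edgeR 1 was called lower and 0 higher, beside 0.964% and 0.213% of all tested genes, and the median log2FC was 0.00049. Creb1, which encodes a cyclic AMP response factor, was 87.6 ± 7.19 CPM in the wildtype brains and 71.5 ± 4.91 CPM in knockout (SD, n = 5 each; log2FC -0.29, edgeR adjusted p 0.0303). Creb1 no longer passed in 9 of 23 alternatives, among them leaving out any 1 of wildtype replicates 3, 4 and 5 or of knockout replicates 1, 2 and 4, and the 7 shallower libraries (0.190, the highest edgeR adjusted p).

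Of 32 immediate early genes listed outside the family 31 were tested, and the median log2FC was -0.51. By the edgeR test 13 fell and 0 rose, beside 0.964% and 0.213% of all tested genes. This list was drawn up with its direction already known from these libraries, so the count is no independent evidence. Placed among them by fold change, Nr4a3 came second after Egr2, a zinc finger factor at -1.57, Nr4a1 lay between Fos (-1.07) and Fosl2 (-0.99), both subunits of AP-1, and Nr4a2 lay below Egr1 (-0.60) in size. Arc, which acts in synaptic plasticity, had -1.17 and Fosb -1.12. Klf4 and the kinase Sik1, itself a CREB target, had -0.92 and -0.82, and Trib1, Klf10, Per1 and Dusp1 had -0.66, -0.64, -0.62 and -0.60, all of them called by edgeR. Egr1 no longer passed in 9 of 23 alternatives, among them leaving out any 1 of wildtype replicates 1, 2, 3 and 5 or of knockout replicates 1, 2 and 4. In the 7 shallower libraries Fos, Fosb, Trib1, Dusp1 and Egr1 had edgeR adjusted p-values of 0.0543, 0.144, 0.110, 0.144 and 0.295.

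The other 18 immediate early genes did not pass. Npas4, a factor induced by neuronal activity, and Jun, the AP-1 subunit, had log2FC values of -0.20 and -0.10 (edgeR adjusted p 0.686 and 0.584), and were named after their values were seen. Npas4 was 25.9 ± 2.94 CPM in the wildtype brains and 22.9 ± 8.65 CPM in knockout (SD, n = 5 each). Without knockout replicate 3 the number called lower was 17, beside 248 of all 14747 genes tested in those libraries. In the 7 shallower libraries it was 7, beside 26 of all 14489 genes tested there.

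**Figure D5:**
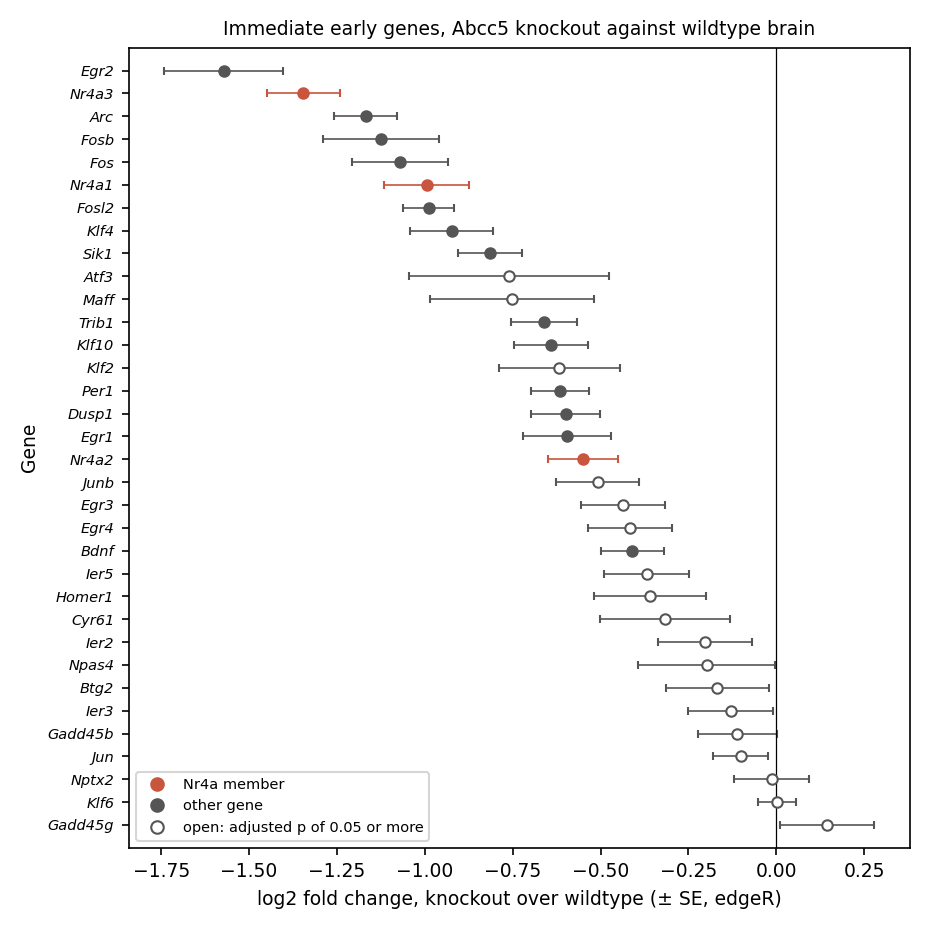
Log2 fold change (knockout over wildtype, with SE) of the 3 Nr4a members and 31 other tested immediate early genes, ordered by value, filled where the edgeR adjusted p is under 0.05. Egr2 at -1.57 and Nr4a3 at -1.35 are lowest, and 29 of the 31 other genes lie below 0.

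Gene lists tied to NR4A action were examined last. The list of dopamine neuron genes held the transmitter enzymes and carriers that Nr4a2 maintains. It also held the factors En1, En2, Lmx1a and Lmx1b, so it is not a list of Nr4a2 targets alone. Of its 13 tested members edgeR called 0, and 0 had p under 0.05 before adjustment. Over all tested genes these shares were 1.18% and 14.8%. DESeq2 and limma-voom, with or without sample weights, also called 0. Ddc and Gch1, enzymes of dopamine and cofactor synthesis, had the smallest p (log2FC values 0.13 and 0.20, edgeR adjusted p 0.506 and 0.610), and the abundant Aldh1a1 and Ret had -0.052 and -0.071. Endoplasmic reticulum chaperones, which have been tied to NR4A action in memory, had 5 of 18 called lower and 0 higher, with a median of -0.18. Over all tested genes 0.964% were called lower and 0.213% higher. The chaperone list too was made with earlier results known. Hspa5, the main chaperone of that compartment, was 384.0 ± 27.9 CPM in the wildtype brains and 274.3 ± 25.5 CPM in knockout (SD, n = 5 each; edgeR adjusted p 0.00128). Xbp1, which drives chaperone genes, was 97.9 ± 3.32 and 72.3 ± 5.85 CPM (SD, n = 5 each; edgeR adjusted p 0.000515). Manf, Dnajc3 and Pdia4 had log2FC values of -0.39, -0.26 and -0.34, and lost their calls in 1, 8 and 10 of 23 alternatives. In the 7 shallower libraries 2 of the 18 were called lower, beside 26 of all 14489 genes tested there.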

How the data were processed

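Polyadenylated RNA of 10 mouse brains was measured, 1 library each. The authors deposited raw counts per Ensembl gene and library, and the submitters' processing notes name TopHat2 2.0.6, HTSeq, edgeR and limma with no role, settings or build. A log2 fold change and an adjusted p-value per gene, another kind of value, were also deposited by the authors, with damaged decimal points in part, and only intact cells were read. A second set of 10 columns of values was not used for the same reason.

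The count analysis used edgeR 4.0.16 (R 4.3.3): filterByExpr (minimum count 10, total 15), TMM scaling (factors 0.982 to 1.01), a quasi-likelihood test of genotype over 14526 genes, two-sided, with Benjamini-Hochberg adjustment. SE was derived from the F statistic, log2 CPM used a prior count of 2, and Poisson intervals (95%) cover counting error only. Library totals were 7731294 to 23588335. Correlations used deviations from group means. Exon lengths came from GENCODE M21 and promoters from RefSeq (GRCm38.p6), both found for all 3 members. The table's own build is not given in the sources used here, and its span of Nr4a1 differs from that of GENCODE M21. On simulated data for this comparison (14451 genes), the test found 90 of 97 genes simulated with 1.5-fold changes and 97 of 97 with 2-fold changes, and called 5 of 14257 without a change. The simulation gave every gene the same variation between brains and held no deviant library. The Nr4a genes varied by 17.5% to 21.6% between knockout brains, so the shares found need not hold for them.

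The members, lists and rule for named genes were chosen with earlier results of these data known. The rule took the members, Abcc5, up to 12 called genes of each list by p, otherwise the 2 smallest p and 2 most abundant, and the 5 genes most like each member. 1 gene that the rule names is not reported here. Alternatives were other scalings, filters and tools (DESeq2 1.42.0, limma 3.58.1), the replicate number as a block, depth class, each library left out and a threshold of 0.01, and, after seeing the data, 2 regional marker terms.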

Additional observations from a re-analysis of the deposited data

Results flagged for a closer look

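In groups of 5 brains, 7 of 54 checks found a brain farther from its neighbours than Dixon's 95% limit, where chance flags about 1 in 20. None concerned an Nr4a level or ratio: knockout replicate 3 came close for Nr4a2. Knockout replicate 3 lay apart for summed cerebellar markers at 243.9 CPM, upstream regulators at 8063 CPM, dopamine neuron genes at 230.8 CPM, microglia markers at 319.9 CPM and cortical layer markers at 608.2 CPM. Wildtype replicate 3 lay apart for the other nuclear receptors at 1944 CPM, and wildtype replicate 5 for endothelial markers at 246.7 CPM.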

How the results depend on the processing

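Nr4a1 and Nr4a3 kept their direction and their call in all 24 alternative analyses, with log2 fold changes of -1.09 to -0.77 and -1.51 to -1.21. Nr4a2 was lower in all 24 and lost its call in the 7 shallower libraries (-0.41, edgeR adjusted p 0.195) and at a threshold of 0.01 (-0.55). For every gene, the 7 shallower libraries differ from the full set in depth, in number and in the weight of knockout replicate 3. These differences cannot be told apart. With 1 library left out the log2 fold changes were -1.09 to -0.90 for Nr4a1, -0.66 to -0.47 for Nr4a2 and -1.41 to -1.22 for Nr4a3. The ratio of Nr4a3 to Nr4a2 did not pass in the 7 shallower libraries (-0.78, exact permutation, adjusted p 0.0857), where 4 libraries against 3 cannot give an unadjusted p under 0.0286, or with signs exchanged within same-numbered pairs as a replicate block (-0.79, adjusted exact p 0.188), where 5 pairs cannot give a p under 0.0625. With 1 library left out that ratio differed by -0.84 to -0.75, Nr4a2 to Nr4a1 by 0.36 to 0.56 and Nr4a3 to Nr4a1 by -0.48 to -0.20. The number of genes called, 171 in all 10 libraries, was 259 by DESeq2, 563 by limma-voom with sample weights, 31 in the 7 shallower libraries, 63 at a threshold of 0.01, 106 with the olfactory bulb term, 358 with the cerebellar term, and 76 to 341 with 1 library left out. Same-numbered libraries shared only a number (correlations of deviations -0.22 to 0.15), and the replicate block gave 90 calls and changed no call of a single Nr4a gene. The cause of these shifts was not tested.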
